A study of Mus musculus with 24 samples.

Results

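Fbp1 and Asap2 are 2 of the 43430 genes in a table of RNA-seq counts from mouse alveolar macrophages. They were chosen by 1 set of measured values, counts that were strongly higher after asbestos than in naive animals in old cells sorted as high for Siglec F, a lectin of resident alveolar macrophages. That comparison chose the genes, so its values are given below as a description with no test. Both genes passed the filter on low counts, which left 13467 genes, and Fbp1 passed it through the asbestos groups alone.

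The libraries came from C57BL/6J mice, either young (8 to 12 weeks) or old (more than 18 months). The mice were naive or had received asbestos 28 days earlier, and the asbestos groups were sorted into alveolar macrophages high (F-high) and low (F-low) for Siglec F, while the naive groups were F-high. This made 6 groups of 4 libraries: naive F-high, asbestos F-high and asbestos F-low, each at both ages. The text of the series speaks of tissue-resident and monocyte-derived cells, whereas the sample labels name the sorts by Siglec F, and the label names are used here. No F-low cells of naive mice and no animals given a control dust were analysed here, so asbestos and its instillation cannot be told apart, and F-low cells have no naive counterpart.

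Fbp1 encodes the liver-type isoform of fructose-1,6-bisphosphatase, which removes a phosphate from fructose 1,6-bisphosphate. This step is irreversible and runs against the phosphofructokinases, so it directs carbon away from glycolysis and towards glucose 6-phosphate, glycogen and the pentose phosphate pathway. The enzyme is best known from gluconeogenesis in liver and kidney, where pyruvate carboxylase, phosphoenolpyruvate carboxykinase and glucose-6-phosphatase catalyse the other steps that bypass glycolysis. Asap2 encodes a GTPase-activating protein for Arf proteins, small GTPases that recruit coats and lipid-modifying enzymes to membranes. The ASAP2 protein carries BAR, PH, ankyrin repeat and SH3 domains. Some proteins of the ASAP family bind Src-family and focal adhesion kinases, and act at focal adhesions, podosomes and phagocytic cups.

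In GENCODE M21 on GRCm38, the same assembly as mm10, Fbp1 (ENSMUSG00000069805) lies on the minus strand at chr13:62864753-62888282. Its 7 merged exons add up to 1702 bp, and no other gene counted here overlaps its exons. Asap2 (ENSMUSG00000052632) spans chr12:20990459-21270171 on the plus strand, with 35 merged exons of 6962 bp in all. The 250 bases before the Fbp1 start are shown because the gene had 0 counts in every young naive library and more than 100 in every young asbestos library. They are taken from RefSeq on GRCm38.p6, chr13:62888283-62888532, minus strand, written 5′ to 3′ with capitals at matches on either strand to GAGGAA, the core recognised by PU.1, a transcription factor of macrophages.
Fbp1: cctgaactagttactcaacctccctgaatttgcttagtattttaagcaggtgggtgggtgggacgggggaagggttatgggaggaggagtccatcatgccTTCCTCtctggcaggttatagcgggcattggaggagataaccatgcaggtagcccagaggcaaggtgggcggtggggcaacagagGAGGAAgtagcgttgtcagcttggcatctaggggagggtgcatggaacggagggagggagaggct

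The window has a GC content of 56.4% and holds GAGGAA 2 times, beginning at base 186 of the window on the strand shown and at base 101 on the other. Of 32851 windows of this length before mouse genes, 23.3% hold GAGGAA on at least 1 strand. The AP-1 motif TGANTCA has 0 matches here and occurs in 6.75% of windows, and the TATA motif TATAAA has 0 matches and occurs in 12.4%. A GC box, GGGCGG, is present once (32.7% of windows), as is CCAAT (33.8%). None of these motifs overlaps another in this window, and a match to letters does not show that a factor binds.

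The depth was 13423080 to 18124526 counts in 22 libraries, which had at least 1 count in 17069 to 18820 genes. The other 2 libraries stood apart, and they are the third replicates of both asbestos F-high groups. The young one held 11889517 counts on 12528 genes, and the old one 3894699 counts on 15037 genes with a TMM scaling factor of 0.315. Levels are in CPM, read counts divided by library sizes that TMM had adjusted, and tests come from 1 edgeR fit of all 24 libraries; a second fit leaves out these 2 libraries. Siglecf was at 312 to 614 CPM in the F-high libraries and at 148 to 294 CPM in the F-low ones. The labels do not say that the libraries of a group came from separate animals, so p-values measure the spread between these libraries.

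Markers of other cell types were compared across the groups, since cells that escape a sort add RNA. The summed level of 3 eosinophil markers was 2.02 to 7.10 CPM in the 8 naive libraries, 5.72 to 33.3 CPM in the asbestos F-high libraries and 14.2 to 60.1 CPM in the F-low ones. Nearly all of it was Ear6, a ribonuclease, while the granule genes Epx and Prg2 reached at most 0.181 and 2.31 CPM. The sum of 7 alveolar macrophage markers also moved with the groups. It went from 13670 to 18031 CPM in young naive to 50949 to 65348 CPM in old F-low libraries, and most of it was Chil3. Its members differed in direction. Chil3, Car4 and Itgax were higher in old F-low than in young naive libraries, while Marco and Pparg overlapped. Siglecf was lower, at 148 to 221 against 490 to 614 CPM, and so was Ear1, at 86.4 to 207 against 328 to 531 CPM. Monocyte markers (4 genes) summed to 29.4 to 39.2 CPM in old F-low libraries and to 11.1 to 36.8 CPM in the others. Fibroblast markers (4 genes) were at 0.0636 to 2.01 CPM in young naive libraries and reached 11.4 CPM in old asbestos F-high. Old F-low libraries did not overlap with young F-low ones in monocyte (29.4 to 39.2 against 13.6 to 19.8 CPM) and endothelial markers (6.59 to 9.68 against 4.68 to 5.78 CPM). They also did not overlap with old naive libraries in endothelial (2.84 to 6.41 CPM), fibroblast (1.83 to 7.30 against 0.111 to 1.46 CPM), T cell (4.19 to 7.96 against 8.47 to 15.5 CPM) and red cell markers (0 to 0.232 against 0.408 to 1.82 CPM). Epithelial markers summed to 282 to 386 CPM in old and 175 to 274 CPM in young naive libraries, most of it Epcam and Cdh1. Of the members only Cdh1 did not overlap between these groups (116 to 184 against 85.7 to 112 CPM). Sftpc was at 3.73 to 7.91 against 3.11 to 10.6 CPM. Neutrophil and dendritic cell sums overlapped in each comparison made here, but members of the neutrophil sum moved in opposite directions. Csf3r was at 31.8 to 53.5 CPM in young naive and at 9.85 to 13.9 CPM in young F-low libraries. S100a8 was at most 5.09 CPM in young naive and at least 11.9 CPM in young F-low libraries, while S100a9 and Retnlg overlapped. In old F-low against old naive libraries Csf3r was lower and Retnlg higher (at least 6.32 against at most 3.03 CPM), without overlap. S100a8 and S100a9 overlapped there. B cell sums were 19.9 to 43.1 CPM in naive against 8.32 to 19.03 CPM in asbestos libraries. The part of these in the results below was not tested, and in bulk RNA fewer cells of a type and less RNA per cell cannot be told apart.

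Fbp1 was close to absent in naive F-high cells and present in every asbestos library. The 4 young naive libraries held 0 Fbp1 counts each, and the old naive libraries 1, 2, 0 and 0, or 0.0583, 0.112, 0 and 0 CPM. In young asbestos F-high libraries the counts were 386, 285, 155 and 121, or 20.7, 14.2, 14.99 and 7.55 CPM (mean 14.3 ± 5.38, SD, n = 4). No library of the one young group overlapped with the other. In this comparison 3.71% of all genes tested were higher after asbestos without overlap, and 4.78% were lower.

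After asbestos, Fbp1 was higher in F-low than in F-high cells of young mice. The young F-low libraries were at 92.2, 178, 76.1 and 42.2 CPM (97.2 ± 58.0, SD, n = 4). The lowest of them was above the highest young asbestos F-high library, as it was for 8.42% of all genes tested. Old asbestos F-high libraries were at 153, 152, 9.80 and 87.0 CPM (100.4 ± 67.8, SD, n = 4). The low value is the library of replicate 3 that stood apart, where it rests on 12 reads with a 95% exact Poisson interval of 5.06 to 17.1 CPM; the other 3 libraries gave 130.5 ± 37.7 CPM (SD, n = 3). Old asbestos F-low libraries had the highest Fbp1 levels of all groups, at 395, 323, 322 and 310.2 CPM (338 ± 38.6, SD, n = 4). By group mean the order from the lowest was young naive, old naive, young asbestos F-high, young asbestos F-low, old asbestos F-high and old asbestos F-low. The groups of young F-low and old F-high overlapped, as did the naive groups, and the old and young asbestos F-high groups overlapped through replicate 3 alone.

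**Figure D1:**
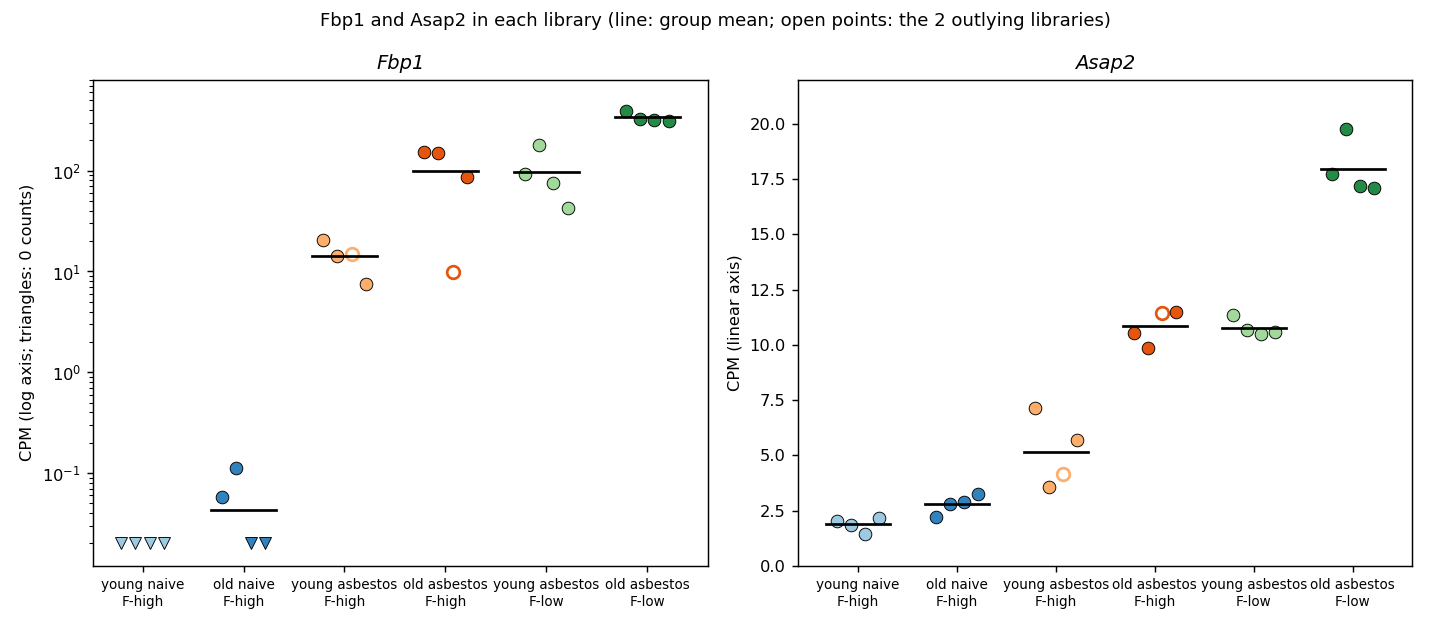
Levels of Fbp1 (left, log axis, CPM) and Asap2 (right, linear axis, CPM) in each of 24 libraries, with 4 points and a line at the mean for each of 6 groups; triangles are libraries with 0 Fbp1 counts, the young naive group has no line on the log axis, and open points are the 2 libraries that stood apart. Fbp1 lies at or below 0.112 CPM in naive libraries and at 7.55 CPM or more after asbestos, and Asap2 climbs from 1.46 to 3.26 CPM in naive libraries to 17.1 to 19.8 CPM in old F-low libraries.

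Asap2 was low but measurable in every library and was higher in each asbestos group than in its naive one. Young naive libraries held 39, 29, 30 and 40 counts, or 2.01, 1.85, 1.46 and 2.17 CPM (1.87 ± 0.305, SD, n = 4). Old naive libraries, which are part of the comparison that chose the gene, were at 2.21, 2.81, 2.87 and 3.26 CPM (2.79 ± 0.430, SD, n = 4). Young asbestos F-high libraries were at 7.13, 3.58, 4.16 and 5.68 CPM (5.13 ± 1.596, SD, n = 4), and the lowest of them was above the highest naive library. Against the young naive libraries alone, 3.71% of all genes tested were higher without overlap.

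The 2 groups in the middle of the order could not be separated for Asap2 either. Young asbestos F-low libraries were at 11.3, 10.7, 10.5 and 10.6 CPM (10.8 ± 0.382, SD, n = 4), and old asbestos F-high libraries at 10.5, 9.84, 11.4 and 11.5 CPM (10.8 ± 0.789, SD, n = 4). Old asbestos F-low libraries were again the highest, at 17.7, 19.8, 17.2 and 17.1 CPM (17.9 ± 1.24, SD, n = 4). The libraries of replicate 3 that stood apart did not leave their groups in this gene. In the old one, however, Asap2 rests on 14 reads (exact Poisson interval 6.25 to 19.2 CPM), and scaling by the total count alone puts it at 3.59 CPM and Fbp1 at 3.08 CPM.

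The spread within the F-low groups differed in size between the genes. In young F-low libraries the SD was 59.6% of the mean for Fbp1 and 3.54% for Asap2, and in old F-low libraries it was 11.4% and 6.93%. Per kilobase of exon, the mean level in old F-low libraries was 198 CPM for Fbp1 and 2.58 CPM for Asap2. In young asbestos F-high libraries it was 8.43 and 0.738 CPM per kilobase, and in old naive libraries Asap2 was the more abundant transcript, at 0.400 CPM per kilobase against 0.0250 for Fbp1.

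**Figure D2:**
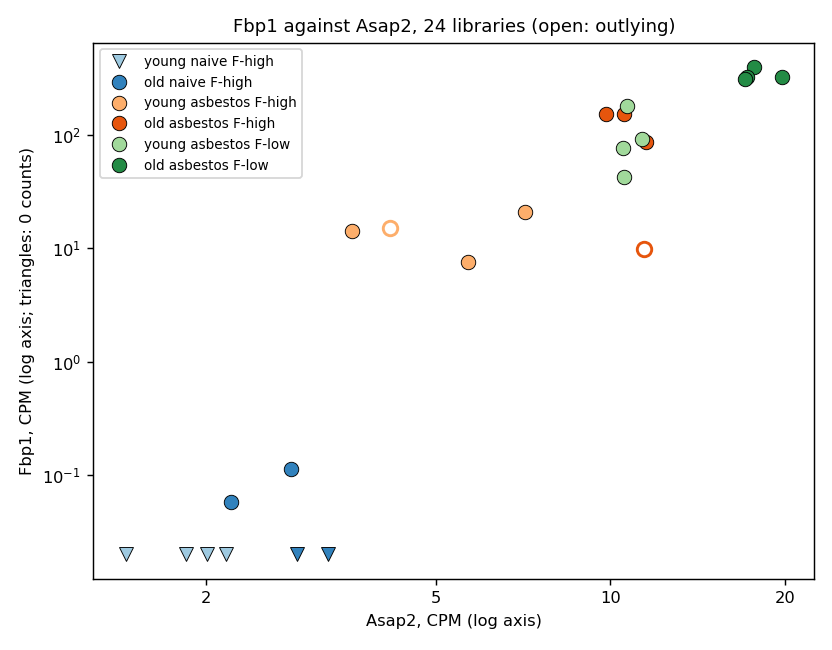
Fbp1 against Asap2 in the 24 libraries, both in CPM on log axes and coloured by group; triangles are libraries with 0 Fbp1 counts and open points the 2 libraries that stood apart. The open point of old asbestos F-high lies at 11.4 CPM of Asap2 with its group but at 9.80 CPM of Fbp1, below the other 3.

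Asbestos against naive in young F-high cells used none of the libraries that chose the genes. Fbp1 and Asap2 both rose in it, in a comparison where 1.43% of all genes tested were called higher (1.9% in either direction). Fbp1 was 359-fold higher when the naive libraries, with 0 counts, were put at a floor of 3 counts over the group. Its edgeR adjusted p was 5.38e-05. The floor was set and not measured, so the ratio is no strict bound, and Fbp1 passed the filter through the asbestos groups alone. Asap2 rose 2.75-fold, a log2 fold change of 1.46 ± 0.19 (SE), at an edgeR adjusted p of 0.000107. In both genes the exact two-sided permutation p of 4 against 4 libraries was 0.0286, the smallest this design allows. Any gene whose groups do not overlap reaches it, here 3.71% of all genes tested as higher and 4.78% as lower. Without the 2 libraries that stood apart the edgeR adjusted p was 1.23e-05 for Fbp1 and 2.30e-05 for Asap2, against 5.06% of genes called in either direction. A fit of only the 8 libraries compared ended the call of Asap2 (adjusted p = 0.221).

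F-low cells exceeded F-high cells of young mice after asbestos in both genes, where 3.41% of genes were called higher and 1.58% lower (4.99% in either direction). The log2 difference was 2.76 ± 0.52 for Fbp1 (6.77-fold, edgeR adjusted p = 0.00265) and 1.06 ± 0.18 for Asap2 (2.09-fold, edgeR adjusted p = 0.000570). Groups did not overlap in either gene, and the exact two-sided permutation p was 0.0286 in both. Asap2 lost its call in a fit of the 8 libraries alone (adjusted p = 0.0830), and with 22 libraries both genes passed (edgeR adjusted p = 4.94e-05 and 0.000307), against 12% of all genes. This comparison shares the young asbestos F-high libraries with the one before it.

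Set against young naive F-high cells, young F-low cells held 2414-fold more Fbp1 by the same floor (edgeR adjusted p = 7.64e-08), with the same limits. Asap2 was 5.75-fold higher, at a log2 difference of 2.52 ± 0.19 (edgeR adjusted p = 3.84e-09). Here 7.94% of genes were called higher (12.4% in either direction). Sort and exposure differ together in this comparison, and their parts cannot be told apart.

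Old F-low cells were next set against young ones, also without the libraries that chose the genes; 0.869% of genes were called higher and 0.423% lower in it (1.29% in either direction). Asap2 was 1.67-fold higher in old animals, a log2 difference of 0.74 ± 0.17 at an edgeR adjusted p of 0.0293. Fbp1 differed by more, at 1.80 ± 0.49 on the log2 scale, and did not pass (edgeR adjusted p = 0.0979). Neither gene overlapped between the ages, with Fbp1 at 42.2 to 178 CPM in young and 310.2 to 395 CPM in old libraries. Both had an exact two-sided permutation p of 0.0286. Among all genes tested, 6.33% were higher and 6.56% lower in old F-low libraries without overlap. The calls turned on the fit. Without the 2 libraries that stood apart, neither of which is F-low, both genes passed, at edgeR adjusted p values of 0.000961 for Fbp1 and 0.00209 for Asap2, against 7.21% of genes called in either direction. Leaving out any 1 of the 8 libraries compared ended the call of Asap2 (adjusted p 0.0601 to 0.108), as did testing with no filter on low counts (0.0901).

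The values that chose the genes, and those that share libraries with them, are given as descriptions. In old F-high cells the summed and scaled Fbp1 counts after asbestos were 3038 times those of the naive group, where only 3 counts were seen; the interval from counting error is 1040 to 14732. Asap2 was 3.85-fold higher in the same comparison, a log2 difference of 1.94 ± 0.19. In it, 0.713% of genes were called higher and 0.78% in either direction (4.12% with 22 libraries), from which nothing is read about the genes it chose. Between the sorts of old asbestos mice, the log2 difference of F-low over F-high was 1.70 ± 0.49 for Fbp1, or 1.36 ± 0.33 without the libraries that stood apart, and 0.74 ± 0.18 for Asap2. Old asbestos F-high cells were above young ones by 2.85 ± 0.52 in Fbp1 and by 1.06 ± 0.18 in Asap2, and old naive cells were above young naive ones by 0.58 ± 0.19 in Asap2.

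The paralogs were looked at because similar genes can share reads. Fbp2, the muscle isoform of the same enzyme, had 6 counts in all 24 libraries together, and the longest run of bases that transcripts of Fbp1 and Fbp2 share is 23. Asap1, the closest relative of Asap2, was far more abundant, at group means of 148 to 203 CPM, or 19.8 to 27.1 CPM per kilobase. Its log2 fold change was -0.11 ± 0.24 for asbestos in young F-high cells (edgeR adjusted p = 0.810), 0.11 ± 0.24 for young F-low against F-high cells (adjusted p = 0.826) and 0.12 ± 0.24 for age in F-low cells (adjusted p = 0.9998). The first 2 values changed sign with 22 libraries, to 0.17 ± 0.09 (edgeR adjusted p = 0.342) and -0.17 ± 0.09 (0.242). Young asbestos F-high replicate 3 was at 50.6 CPM of Asap1, and the rest of its group at 163 to 199 CPM. For asbestos in old F-high cells Asap1 differed by 0.43 ± 0.24 (edgeR adjusted p = 0.702), or 0.32 ± 0.09 with 22 libraries (0.0469). Asap3 stayed at group means of 0.172 to 0.888 CPM and was not called in these comparisons. The longest run that transcripts of Asap2 share with those of Asap1 is 25 bases, and with those of Asap3 18 bases.

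Neighbouring genes on the chromosome were examined next. The exons of Asap2 overlap those of Itgb1bp1, a regulator of integrins on the opposite strand, over 402 bp (5.77% of the Asap2 exons), and those of 3 gene models that were too low to test. Whether the counting used strand is not given in the sources used here, so reads from the shared bases cannot be assigned. Itgb1bp1 did not pass for asbestos in young F-high cells (0.77 ± 0.24, edgeR adjusted p = 0.108). Its log2 difference was -0.02 ± 0.24 between the young sorts and 0.01 ± 0.24 between ages in F-low cells, where Asap2 differed by 1.06 and 0.74. It was called in young F-low against young naive cells (0.76 ± 0.24, edgeR adjusted p = 0.0418), where Asap2 differed by 2.52. Of the 4 nearest tested genes around Fbp1, 2010111I01Rik, an aminopeptidase gene, rose in young F-high cells after asbestos, by 0.79 ± 0.18 (39.3 against 22.6 CPM, edgeR adjusted p = 0.0190). That call was lost without replicate 3 or 4 of young naive (adjusted p = 0.0756 and 0.0605) and in a fit of only the 8 libraries compared (0.572). In young F-low against young naive cells 2010111I01Rik was called, by 1.21 ± 0.18 (52.4 against 22.6 CPM, edgeR adjusted p = 3.49e-05). There 12.4% of all genes were called, and the other tested neighbours of Fbp1 were not. The nearest tested genes around Asap2 (Zfp125, 3110053B16Rik, Cpsf3 and Iah1) did not pass for asbestos in young F-high cells. In young F-low against young naive cells Zfp125 was called lower (-0.61 ± 0.16, edgeR adjusted p = 0.0152), while 3110053B16Rik, Cpsf3 and Iah1 were not called.

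The other gluconeogenic steps and the enzymes that oppose them were looked at as a list. Of 21 such genes apart from Fbp1, 16 could be tested. Among those too low to test were the cytosolic carboxykinase Pck1 (2 counts in all libraries), the glucose-6-phosphatase G6pc (1 count) and the liver pyruvate kinase Pklr (4 counts). None of the 16 was called for asbestos in young F-high cells. The edgeR test called 1.9% of all genes there, so 0 calls among 16 genes is near that share. The median log2 fold change of the 16 was -0.08 against -0.01 over all genes. In that comparison 1 had an unadjusted p under 0.05, DESeq2 called 1, limma voom 4 and edgeR with 22 libraries 3. The mitochondrial carboxykinase Pck2 was at 22.5 ± 1.24 CPM after asbestos and 21.5 ± 1.67 CPM in naive libraries (SD, n = 4), and the ubiquitous glucose-6-phosphatase G6pc3 at 46.1 ± 5.55 and 41.8 ± 1.67 CPM. Pyruvate carboxylase, Pcx, was at 3.34 ± 2.24 and 3.71 ± 0.902 CPM. Hexokinase 2, Hk2, was at 88.8 ± 45.5 against 51.5 ± 2.88 CPM (log2 fold change 0.78 ± 0.21, edgeR adjusted p = 0.0520), and without the 2 libraries that stood apart its log2 fold change was 0.36 (adjusted p = 0.0487).

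Between the young sorts, 2 of the 16 were higher in F-low cells and none lower, where 3.41% of all genes were called higher and 1.58% lower. Both act in the glycolytic direction. The liver-type phosphofructokinase Pfkl, whose reaction Fbp1 reverses, was at 75.3 ± 8.79 against 43.9 ± 6.99 CPM (log2 difference 0.78 ± 0.14, edgeR adjusted p = 0.000925). The hexokinase Hk3 was at 96.7 ± 4.797 against 51.2 ± 20.3 CPM (0.91 ± 0.21, edgeR adjusted p = 0.0123), and lost its call in a fit of only the 8 libraries compared (adjusted p = 0.315). The median of the list was 0.17, against 0.00 over all genes. No member was called by edgeR, had an unadjusted p under 0.05 or was called by DESeq2 with age in F-low cells or after asbestos in old F-high cells. Over all genes edgeR called 1.29% and 0.78% in these 2 comparisons. There limma voom called 2 and 1, and edgeR with 22 libraries 3 and 1.

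**Figure D3:**
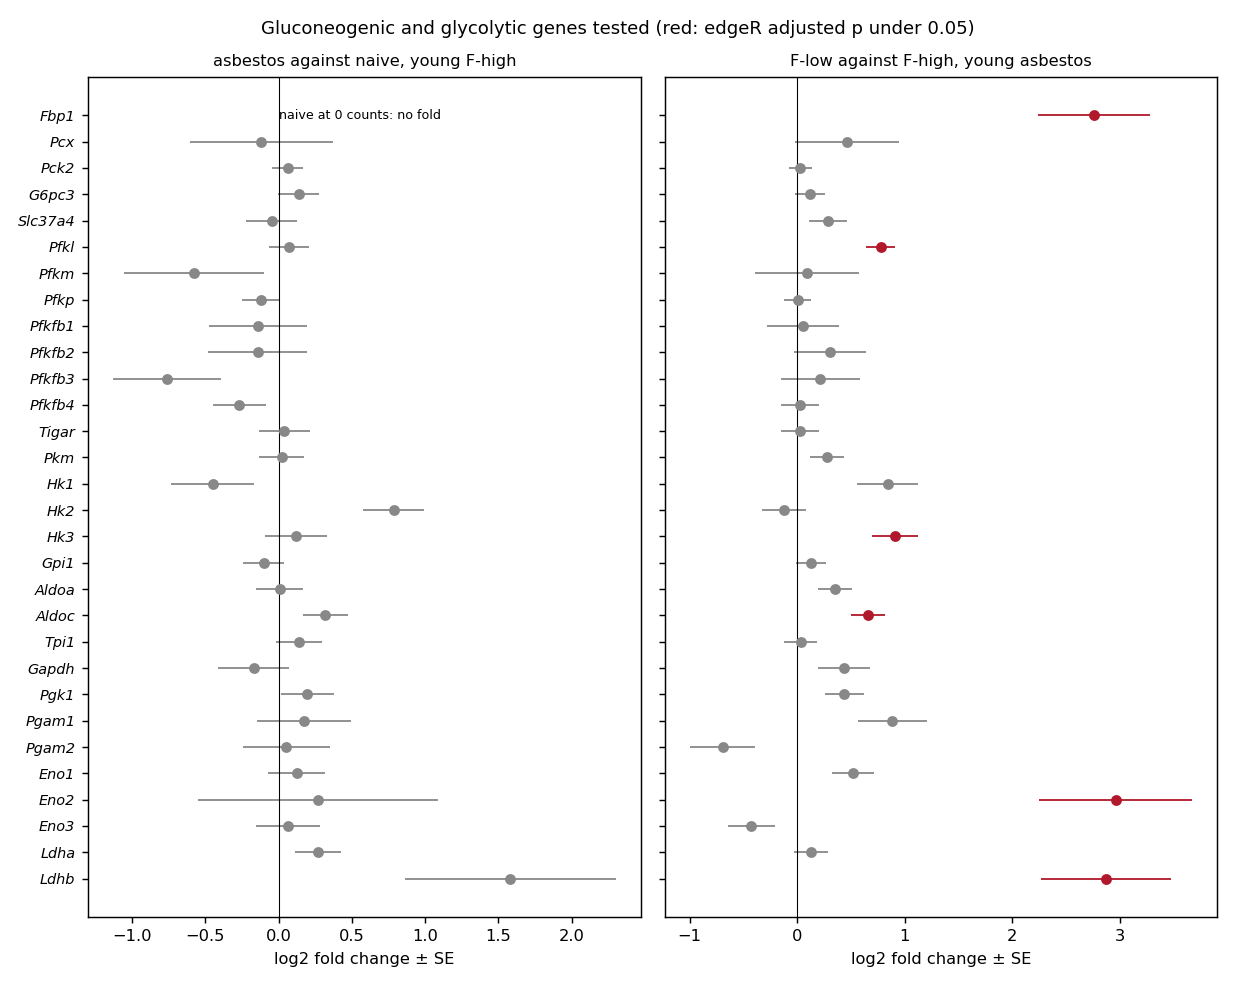
Log2 fold changes (point) with SE (bar) of Fbp1 and of the tested genes of gluconeogenesis and glycolysis, for asbestos against naive in young F-high cells (left) and F-low against F-high in young asbestos mice (right); red marks an edgeR adjusted p under 0.05. Fbp1 has no fold on the left because its naive libraries hold 0 counts, no other gene is red on the left, and besides Fbp1 the genes in red on the right are Pfkl, Hk3, Aldoc, Eno2 and Ldhb.

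Of the genes for the steps of glycolysis that run both ways, 13 were tested. None of the 13 tested genes was called by edgeR for asbestos in young F-high cells (1 at an unadjusted p under 0.05, 0 by DESeq2, 6 by limma voom, 3 with 22 libraries), where 1.9% of all genes were called. Between the young sorts 3 were higher in F-low cells and 0 lower, where 3.41% of all genes were called higher and 1.58% lower. There 8 had an unadjusted p under 0.05, DESeq2 called 3, limma voom 7 and edgeR with 22 libraries 7. The median log2 difference of the 13 was 0.44, against 0.00 over all genes. The 3 called by edgeR were the lactate dehydrogenase subunit Ldhb (3.42 against 0.442 CPM, log2 difference 2.87 ± 0.60, edgeR adjusted p = 0.00488), the aldolase Aldoc (0.66 ± 0.16, adjusted p = 0.0125) and the enolase Eno2 (1.53 against 0.175 CPM, 2.96 ± 0.71, adjusted p = 0.0148). Aldoc lost its call without replicate 1 of young F-low (adjusted p = 0.0697). With only the 8 libraries compared, neither Ldhb (adjusted p = 0.136) nor Aldoc (0.105) was called. None was called by edgeR with age in F-low cells (0 at an unadjusted p under 0.05, 0 by DESeq2, 1 by limma voom, 1 with 22 libraries).

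Of 20 genes of fructose, pentose phosphate and glycogen metabolism, none was called by edgeR for asbestos in young F-high cells (4 at an unadjusted p under 0.05, 0 by DESeq2, 4 by limma voom, 2 with 22 libraries), where 1.9% of all genes were called. Between the young sorts the glycogen branching enzyme Gbe1 was higher in F-low cells (0.91 ± 0.19, edgeR adjusted p = 0.00596), and the glycogen phosphorylase Pygl was lower (435 ± 5.11 against 578 ± 66.8 CPM, adjusted p = 0.0138), against 4.99% of all genes called. With only the 8 libraries compared, neither Gbe1 (adjusted p = 0.11) nor Pygl (0.238) was called. Pygl fell further with age in F-low cells, to 319 ± 22.8 CPM (log2 difference -0.45 ± 0.10, edgeR adjusted p = 0.0192), the 1 of the 20 called there, against 1.29% of all genes. Leaving out single libraries ended the Pygl calls, at adjusted p values of 0.0529 to 0.0549 in 3 cases between the sorts and 0.0512 to 0.106 in 7 cases between the ages. Testing with no filter on low counts ended them as well (edgeR adjusted p = 0.114 between the sorts and 0.192 between the ages).

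The Arf proteins, on which proteins of this family act, were not called by edgeR, DESeq2 or limma voom for asbestos at either age in F-high cells, between the young sorts or with age in F-low cells. Over all genes edgeR called 1.9% for asbestos in young and 0.78% in old F-high cells, 4.99% between the young sorts and 1.29% with age. Among the 6 Arf GTPases, Arf6, which works at the plasma membrane, was at 184 ± 38.3 CPM after asbestos and 164 ± 13.5 CPM in naive young F-high libraries (SD, n = 4). The median log2 fold change of the 6 was 0.17 for asbestos in young F-high cells and 0.04 between the young sorts, against -0.01 and 0.00 over all genes. In the first of these, 2 of the 6 had an unadjusted p under 0.05, and 0 in each of the other 3 comparisons. With 22 libraries none was called in the same 4 comparisons.

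Of the 22 other Arf GTPase-activating proteins, 1 was called for asbestos in young F-high cells, where 1.9% of all genes were called. This was Arfgap3, which acts at the Golgi, at 65.2 ± 26.0 against 37.5 ± 1.97 CPM (log2 fold change 0.80 ± 0.21, edgeR adjusted p = 0.0479). Leaving out any 1 of 7 of the 8 libraries ended this call (adjusted p 0.0633 to 0.145), as did a fit of those 8 alone (0.707) and testing with no filter on low counts (0.0766). Without the 2 libraries that stood apart the adjusted p was 5.55e-08. Between the young sorts Arap1 was higher in F-low cells (0.37 ± 0.09, edgeR adjusted p = 0.0203), and Agap2 was lower (-0.57 ± 0.13, adjusted p = 0.00812), against 4.99% of all genes called. With only the 8 libraries compared, neither Arap1 (adjusted p = 0.209) nor Agap2 (0.155) was called. Arap1 lost its call without replicate 2, 3 or 4 of young F-low (adjusted p 0.0509 to 0.0586) and with no filter on low counts (0.104). None was called by edgeR with age in F-low cells (1.29% of all genes), where 2 had an unadjusted p under 0.05, DESeq2 called 1 and limma voom 3, and 1 was higher and 2 were lower with 22 libraries.

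**Figure D4:**
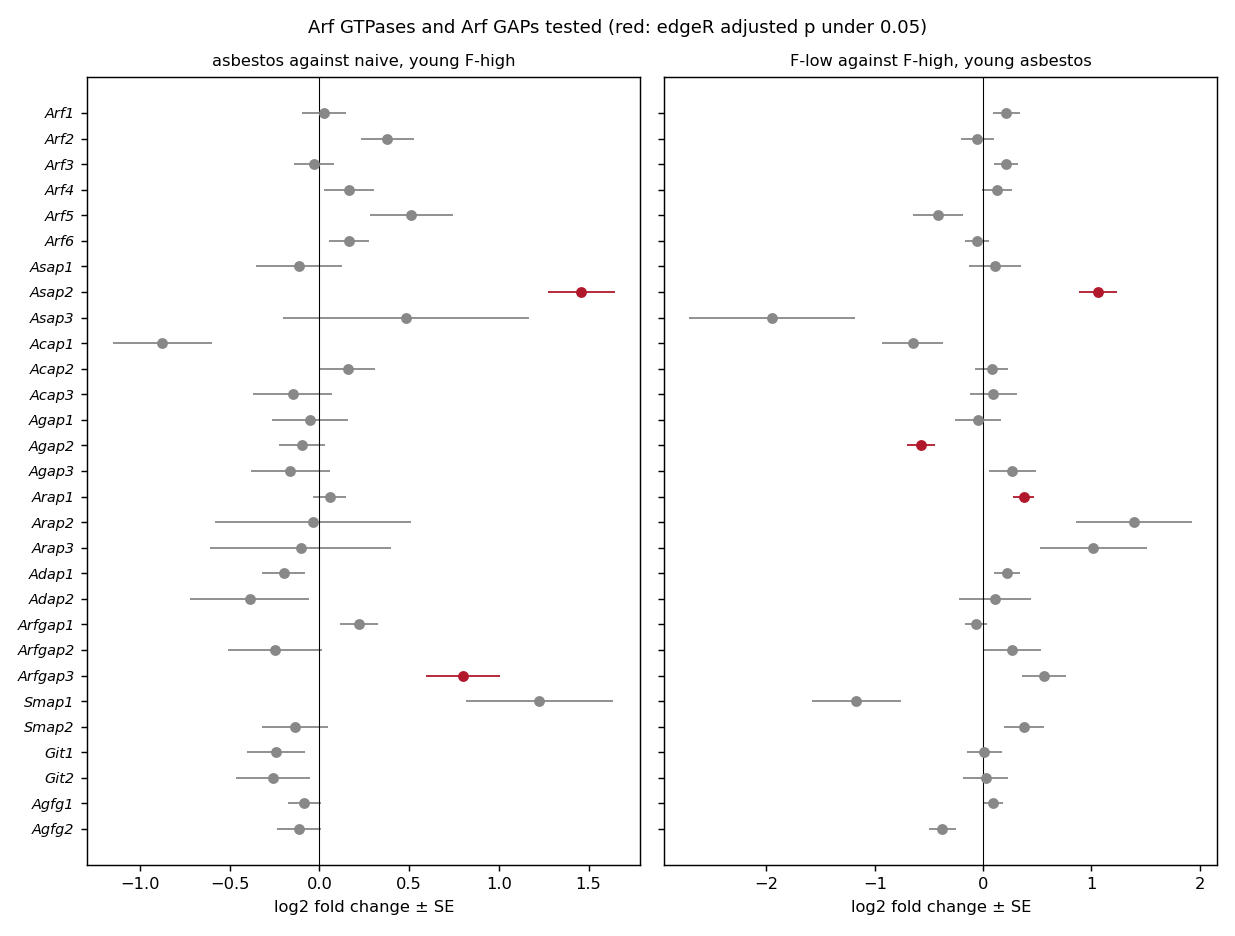
Log2 fold changes (point) with SE (bar) of the 6 Arf GTPases, Asap2 and the 22 other Arf GTPase-activating proteins tested, for asbestos against naive in young F-high cells (left) and F-low against F-high in young asbestos mice (right); red marks an edgeR adjusted p under 0.05. Asap2 and Arfgap3 are red on the left, and Asap2, Arap1 and, below 0, Agap2 are red on the right.

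The exchange factors that load Arf proteins with GTP were tested for 14 genes. None was called by edgeR for asbestos in young F-high cells, between the young sorts or with age in F-low cells, where 1.9%, 4.99% and 1.29% of all genes were called. In the same order 3, 4 and 1 had an unadjusted p under 0.05, DESeq2 called 0, 3 and 0, limma voom 3, 3 and 2, and edgeR with 22 libraries 1 in each. Arfgef3 was called after asbestos in old F-high cells, at 8.78 ± 13.8 against 0.401 ± 0.136 CPM (SD, n = 4; log2 fold change 4.05 ± 0.93, edgeR adjusted p = 0.0379), where 0.78% of all genes were called. Without the old replicate 3 that stood apart the adjusted p was 0.153, and with 22 libraries the log2 fold change was 2.22 (adjusted p = 0.0251). Leaving out any 1 old naive library also ended the call (adjusted p 0.0868 to 0.148), as did a fit of only the 8 libraries compared (0.229).

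Of the partners of ASAP proteins at focal adhesions and podosomes, 24 were tested. None was called for asbestos in young F-high cells, where edgeR called 1.9% of all genes. The median log2 fold change of the 24 was -0.22 there, against -0.01 over all genes. Of them 6 had an unadjusted p under 0.05, and DESeq2 called 0, limma voom 4 and edgeR with 22 libraries 0. Between the young sorts 5 were higher in F-low cells and 1 was lower, where 3.41% of all genes were called higher and 1.58% lower. Src, the kinase that phosphorylates ASAP proteins, was at 13.5 ± 2.96 against 3.03 ± 1.26 CPM (log2 difference 2.12 ± 0.32, edgeR adjusted p = 0.000246). The integrin subunit Itgb3 was at 7.37 ± 1.41 against 2.31 ± 0.689 CPM (1.69 ± 0.29, adjusted p = 0.000705). The actin regulator Vasp was the lower one, at 292 ± 13.7 against 383 ± 14.8 CPM (adjusted p = 0.0314). Vasp lost its call without any 1 of 7 of the 8 libraries (0.0501 to 0.125), in a fit of the 8 alone (0.134) and with no filter on low counts (0.169). No partner was called by edgeR with age in F-low cells, where 3 had an unadjusted p under 0.05, DESeq2 called 2, limma voom 6 and edgeR with 22 libraries 4. After asbestos in old F-high cells edgeR called none, with 3 at an unadjusted p under 0.05, and DESeq2 called 0, limma voom 1 and edgeR with 22 libraries 1.

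Young F-low against young naive cells, where both sort and exposure differ, gave more calls in these lists, as over all genes (12.4% in either direction, 34.7% with 22 libraries). Of the gluconeogenic list 3 of 16 were higher and 0 lower, of reversible glycolysis 6 of 13 and 0, and of fructose, pentose phosphate and glycogen metabolism 5 of 20 and 2. Of the other Arf GTPase-activating proteins 2 of 22 were higher and 3 lower, of the exchange factors 2 of 14 and 0, and of the focal adhesion partners 5 of 24 and 3. None of the 6 Arf GTPases was called by edgeR or DESeq2, while 2 had an unadjusted p under 0.05 and limma voom called 4. With 22 libraries edgeR called 6 higher and 2 lower, 9 and 1, 7 and 3, 6 and 5, 3 and 4, and 10 and 8 members of the first 6 lists in this order, and 3 higher Arf GTPases.

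Genes whose log2 CPM followed Fbp1 or Asap2 most closely over the 24 libraries were named by Pearson r. These correlations describe libraries that share their 6 groups, and carry no test. For Fbp1 they were Atf7ip2 (r = 0.957), Arg1 (0.952), Rnase2a (0.945), Ptgs1 (0.944) and Asap2 (0.942), so that Asap2 was the fifth of the tested genes with a symbol. Both members were chosen as higher after asbestos in old F-high libraries, which are among these 24. Their r and rank with each other therefore follow in part from the choice, and nothing is read from them. Arg1 encodes arginase, Rnase2a a ribonuclease of the eosinophil-associated family, and Ptgs1 cyclooxygenase 1. Arg1 had group means of 0.584 and 0.682 CPM in young and old naive cells, 8.90 and 22.6 CPM in young and old asbestos F-high cells, and 152 and 432 CPM in young and old F-low cells. Rnase2a was at 0.0135, 0.182, 3.03, 28.0, 38.2 and 150.6 CPM in the same order. Atf7ip2 was low throughout, at 0, 0.0569, 1.06, 1.05, 1.84 and 3.12 CPM. In naive libraries its log2 CPM, like that of Fbp1 and Rnase2a, rests largely on the prior count of 2.

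For Asap2 the closest genes included the growth factor Igf1 (r = 0.958), Ptgs1 (0.954), Mfge8 (0.949), which bridges dying cells to phagocytes, and C2cd2 (0.947). Fbp1 was the eighth of the tested genes with a symbol, under the same limit from the choice. Igf1 had group means of 16.3 and 33.5 CPM in young and old naive cells, 69.8 and 120 CPM in the F-high asbestos groups, and 187 and 233 CPM in the F-low groups. Ptgs1 stood in both lists of 5. With 22 libraries 3 of the 5 genes for Fbp1 and 2 of the 5 for Asap2 stayed among the first 5, and the r between Fbp1 and Asap2 was 0.962.

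**Figure D5:**
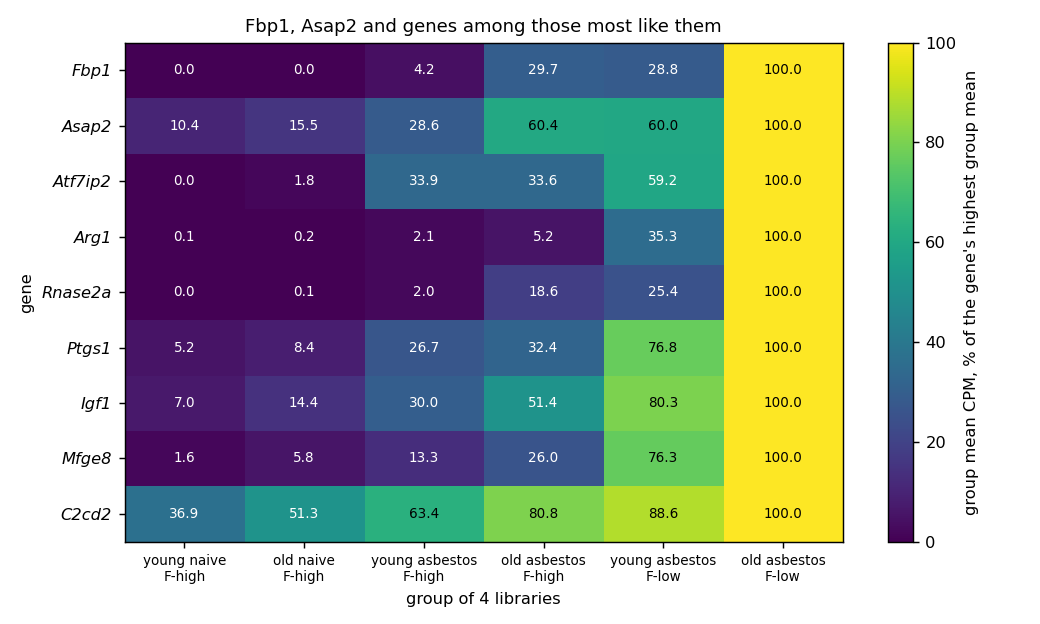
Group mean CPM of Fbp1, Asap2 and genes among those most like them by Pearson r, each as a percent of the gene's own highest group mean, with 6 groups of 4 libraries in columns. Every gene shown is highest in old asbestos F-low cells. The genes were picked by likeness to Fbp1 and Asap2, which peak there, so this follows in part from the choice. Young F-low and old F-high cells are at 28.8% and 29.7% of the maximum for Fbp1 and at 60% and 60.4% for Asap2, but at 35.3% and 5.23% for Arg1.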

How the data were processed

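The authors deposited 1 table of raw counts per Ensembl mouse gene for 24 libraries; per the labels these were poly(A)-selected RNA libraries. The submitters' processing notes name bcl2fastq 2.19.1, FastQC, Trimmomatic 0.36, STAR 2.6.0, HTSeq 0.11.2 and mm10; the annotation and strand setting are not given in the sources used here.

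Genes were kept by filterByExpr (minimum count 10, minimum total 15) and fitted with the edgeR 4.0.16 quasi-likelihood model in R 4.3.3 with TMM factors and 1 term per group. Benjamini-Hochberg adjustment ran over all 13467 genes (13629 with 22 libraries), and genes were called under 0.05. Log2 CPM used a prior count of 2. The script was tested on simulated data. Alternatives were DESeq2 1.42.0, limma 3.58.1 voom with quality weights, no filter, a replicate block, only the groups compared, 22 libraries and leaving out each library.

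Fbp1, Asap2, the gene lists and the tests were chosen with earlier results of these data known. Named were both genes, paralogs, the 2 nearest tested genes on each side, the 5 genes of highest r and up to 2 called members per list, direction and comparison; Eno2 and the list members given without a call were chosen after their values were seen. One gene named by this rule is not reported here, though it stays in the counts. Symbols were found for 42462 IDs.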

Additional observations from a re-analysis of the deposited data

Results flagged for a closer look

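In 2 of 22 groups checked for a library far from the other 3 the limit was passed, and chance passes it in about 1 of 20 groups. Fbp1 in old asbestos F-low replicate 1 was at 395 CPM, with the other libraries at 310.2 to 323 CPM; its gap was 0.845 of the range. Asap1 in old asbestos F-high replicate 3, the library with 3894699 counts, was at 252 CPM, with a gap of 0.830 of the range.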

How the results depend on the processing

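For the members, no direction reversed under any alternative. Fbp1 with age in F-low cells passed, at log2 differences of 1.83 (DESeq2, adjusted p = 0.0312), 2.27 (limma voom, 5.45e-06), 1.80 (22 libraries), 1.96 (replicate block, 0.0424) and 1.81 (only these groups, edgeR adjusted p = 0.00445). It did not pass without any 1 library either, at 1.55 to 2.27. Asap2 no longer passed with only the groups compared, at 1.45 for asbestos in young F-high cells and 1.06 between the young sorts. With age in F-low cells it no longer passed without a filter (0.74) or without any 1 library (0.69 to 0.77). The replicate block changed no other call of the members, and ended those of Arfgap3 (adjusted p = 0.0719) and Arfgef3 (0.0929). The labels do not say that replicate numbers pair libraries. Correlations of same-numbered libraries were -0.286 to 0.245; in no comparison were all 4 over 0.1, though all 4 were positive in young F-low against young naive (0.0663 to 0.163) and between the old asbestos sorts (0.0733 to 0.186). Fbp1 has no value between the naive groups, which are both at or under the floor.

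Genes called numbered 256 for asbestos in young F-high cells, 672 between the young sorts, 1666 for young F-low against naive, 174 with age in F-low cells and 105 for asbestos in old F-high cells. In the same order, limma voom called 1895, 2309, 5710, 1285 and 687, 22 libraries 690, 1638, 4729, 983 and 562, and only the groups compared 10, 181, 3746, 798 and 51. DESeq2 called 594, 1133, 358 and 243 in the comparisons other than the third. Leaving out 1 library gave 101 to 647, 427 to 1158, 1171 to 1444, 77 to 130 and 39 to 113. The causes were not tested. Of 225 alternative values of list members and neighbours 172 kept their call, 53 lost it and 0 reversed; of 420 counts of called list members 110 moved by over 1.5 times. Depth limits Fbp1 in naive libraries, where 0 to 2 counts were seen, and both genes in old asbestos F-high replicate 3.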
